A study of Tribolium castaneum with 6 samples.

Results

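The transcript assembly of Tribolium castaneum larvae contained 621 loci that had no gene name and whose only transcript had a single exon. They were chosen by 3 properties of the assembly, namely an identifier given by the assembler (MSTRG followed by a number), no gene name on any transcript, and 1 exon. No expression value was used in the choice, but an assembler makes such loci only where reads lie. They made up 621 of the 15099 genes and loci obtained after the FPKM of all transcripts of a gene had been added up, beside 14316 named genes, 154 unannotated spliced loci and 8 further units of unnamed transcripts inside named loci. FPKM counts the fragments of a transcript relative to its length and to the total of the library. The RNA came from Georgia-1 larvae that were injected at an age of 20 days with about 200 ng of double-stranded RNA and collected 6 days later as pools of 10 unsexed whole larvae. The dsTcAMPKα group (3 libraries) received double-stranded RNA against TcAMPKα, the catalytic subunit of the energy-sensing AMP-activated protein kinase. The dsEGFP group (3 libraries) received double-stranded RNA against a fluorescent protein gene that the beetle lacks. Both groups therefore share strain, injection and age, and the study's methods call the 3 replicates of each group biologically independent.

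A reference-guided assembler builds a new locus wherever reads pile up outside the annotated genes. Such single-exon loci can be genes missing from the annotation, long noncoding RNAs, untranslated ends of neighbouring genes, transcripts of transposable elements, or reads from unspliced RNA or genomic DNA. Transposable elements of the LINE class are copied through an RNA that encodes a reverse transcriptase and an endonuclease, and their copies lie scattered over the genome. In an unstranded library a single-exon locus has no splice site from which its strand could be read.

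The 6 libraries had between 5.03 and 5.64 gigabases aligned on the listed transcripts, and at a locus with an FPKM of 1 the mean coverage was between 5.17 and 5.79 reads per base. The targeted gene, listed as Snf1a, had 10.7, 7.32 and 16.3 FPKM in dsTcAMPKα replicates 1 to 3, against 77.3, 74.9 and 56.9 FPKM in dsEGFP replicates 1 to 3. The labels hold no replicate numbers. Those used here follow the order of the samples in the series and were not matched to the study's own numbering. The mitochondrial sequence took 12.2%, 13.3% and 13.8% of the aligned bases in the dsTcAMPKα libraries, against 22.2%, 24.1% and 20.4% in the dsEGFP libraries. Of 11 epidermal, midgut and neurosecretory marker genes found in the tables, 0 passed the limma threshold used for the loci, 3 had an unadjusted p under 0.05, and their log2 fold changes ran from -1.94 to 0.67.

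The loci were spread over the whole assembly (Tcas5.2) and were most frequent, relative to named genes, on the small unplaced scaffolds. On the 11 assembled NC_ sequences lay 305 loci, and 316 lay on 261 of the unplaced NW_ scaffolds, so that 50.9% of the single-exon loci were on scaffolds. The same share was 37% of the unannotated spliced loci, 11.4% of the named single-exon genes and 7.93% of the named multi-exon genes. Of the 261 scaffolds, 230 carried 1 such locus, the most on any scaffold was 6, and 188 scaffolds with 207 of the loci held no named gene at all. On the scaffolds, 50 loci began within the first 10 bases of the sequence and 88 within the first 100 bases. Among the chromosomes, NC_007418.3 had the largest number with 69 loci, which is 3.65 for every 100 named genes. NC_007425.3 had 29 loci, or 5.46 per 100 named genes. NC_007420.3 had 21 loci and the lowest rate, 1.28 per 100 named genes.

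The single-exon loci were short, weakly expressed and mostly without an assigned strand. Their length ran from 200 to 10173 bases with a median of 642, against 728 for the unannotated spliced loci, 743 for the named single-exon genes and 1514 for the named multi-exon genes. Their median level, taken over loci from the mean FPKM of the 6 libraries, was 0.927, against 2.93, 1.33 and 9.48 FPKM in the same 3 classes. The interquartile range of the levels was narrow, from 0.585 to 2.56 FPKM. Named single-exon genes, of which 160 were at 0 in all libraries, spanned 0.0328 to 15.5 FPKM between the same quartiles. Only 1 of the 621 single-exon loci was at 0 in all libraries. An unnamed locus is assembled only where reads lie, so its levels and zeros cannot be compared freely with those of annotated genes. A mean of at least 1 FPKM was reached by 293 of the 621 loci (47.2%), a mean of at least 10 FPKM by 61, and 403 were above 0 in all 6 libraries. No strand was given for 433 loci (69.7%), whereas 102 were on the plus and 86 on the minus strand. The loci with a strand were longer than those without (median 813 against 573 bases) and more abundant (median 1.79 against 0.809 FPKM).

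**Figure D1:**
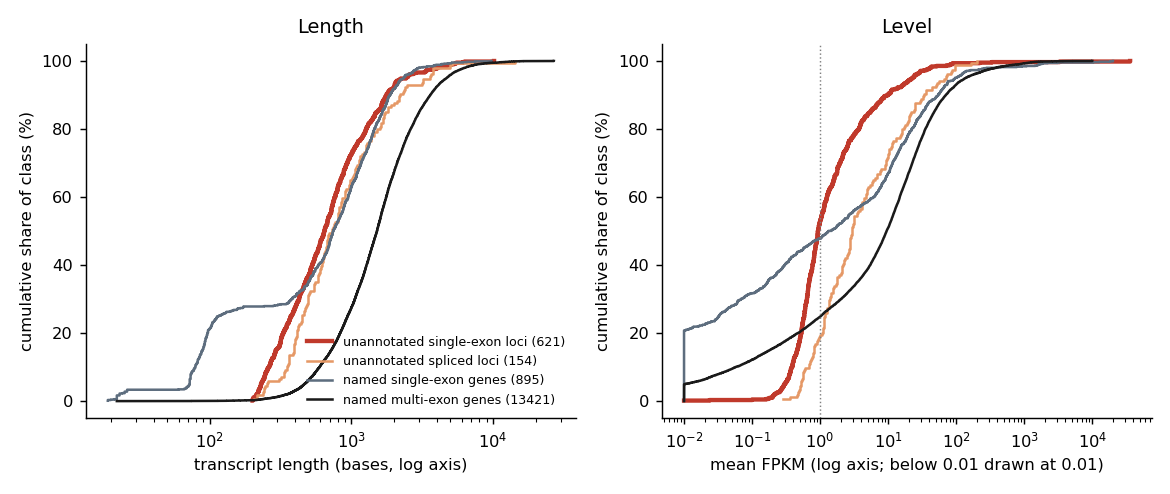
Cumulative share of each class (vertical axis, %) against transcript length in bases (left) and mean FPKM over the 6 libraries (right), both on log axes; the dotted line marks 1 FPKM. The unannotated single-exon loci have a median length of 642 bases and a median level of 0.927 FPKM, and their level curve is the steepest of the 4.

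On the chromosomes, the distance of the loci to named genes was described without a comparison to other positions. The distance from a locus on an NC_ sequence to the nearest named gene had a median of 2616 bases, with quartiles at 586 and 6111 bases and a maximum of 81667, and 50 loci were more than 10 kb away. Over all sequences, 22 loci overlapped a named gene, 14 of these lay inside its limits, and 19 of the 22 were listed on the other strand. A further 111 loci were within 1 kb of a named gene without overlapping it. Of these, 85 lay upstream of the gene and 23 downstream of it, and the rest were beside a gene without a strand. Among the 85 upstream loci, 25 had the strand of the gene, 18 the other strand and 42 no strand. Downstream of a gene, 2 had its strand and 19 the other. Transcripts that the assembler placed in the locus of a named gene were left out by the choice of loci. The strand counts of overlapping and nearby loci therefore cannot be read as a preference for a strand. Strands here and below are those listed, and in an unstranded library the strand of a single-exon locus is not measured.

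Later annotation was available as the order of genes in the RefSeq assembly icTriCast1.1, whose coordinates are of another build and were not used. For 96 of the 305 loci on NC_ sequences both flanking named genes were found close together in that order, and in 38 cases RefSeq now lists between them at least 1 gene that the tables do not name, whereas in 58 it lists none. The genes listed in between comprised 32 protein-coding genes, 24 long noncoding RNA genes, 4 tRNA and 3 microRNA genes, counted once for each locus. Intervals between neighbouring named genes that held a locus had gained a gene in 27 of 75 cases (36%), against 350 of 3301 intervals without one (10.6%). The intervals with a locus were also far wider, with a median of 13068 against 954 bases. Between 7246 and 33849 bases, the middle range of the intervals with a locus, the shares were 48.6% of 37 intervals with a locus and 22.7% of 264 without. Whether a listed gene is the same transcript as the locus was not tested.

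The effect of the knockdown was tested with limma on log2(FPKM + 1) over all 10981 genes and loci with a mean of at least 1 FPKM. To pass, a locus needed a log2 fold change beyond 1 in either direction and, after Benjamini-Hochberg adjustment over all of them, p under 0.05. On this scale the change of a locus with few reads is understated. The filter on the mean also admits loci that reach it through a single group, such as MSTRG.13134, which was at 0 in all dsEGFP libraries. In bulk RNA of whole larvae, fewer cells of a type and less RNA per cell cannot be told apart. Among the 293 single-exon loci tested, 31 passed (10.6%), where the share over all genes and loci tested was 6.8%. Of these, 25 were higher in dsTcAMPKα larvae (8.53% of the loci tested, against 4.09% of all tested) and 6 were lower (2.05% against 2.71%). At all 31 the libraries of the groups did not overlap. Over all 621 single-exon loci, tested or not, the dsTcAMPKα libraries were all above at 174 and all below at 39. Over all 15099 genes and loci these counts were 3868 and 1686, and 36.8% had groups that did not overlap. The median log2 fold change was 0.33 over the tested loci and 0.20 over all genes and loci tested. With median-ratio size factors the split was 11 higher and 7 lower, where 5.56% of all tested passed and 1.48% were higher. With the mitochondrial sequence left out of the total it was 12 higher and 6 lower, where 5.42% of all tested passed and 1.89% were higher. These scalings moved the median of all genes to -0.0078 and 0.055. Among the 124 tested spliced unannotated loci, 11 passed as higher and 9 as lower, with a median of -0.013, and the difference between the classes was not tested.

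The number of loci that passed changed when a single library was left out, which also makes a group smaller. Whether the library itself or the smaller group accounts for the change was not tested. Without dsTcAMPKα replicate 1 or 2, limma called 0 single-exon loci and 0 of all genes, with 67 and 76 loci still under an unadjusted p of 0.05. Without dsTcAMPKα replicate 3 it called 1 locus, higher, and 34 of all genes and loci (0.311%). Without dsEGFP replicate 2 it called 3 loci, all higher, and 54 of all (0.491%). Without dsEGFP replicate 1, 20 loci were higher and 3 lower, and 706 of all passed (6.45%). Without dsEGFP replicate 3, 29 loci were higher and 19 lower, and 1199 of all passed (10.9%). In every one of these 6 settings all 31 loci kept the sign of their fold change. This was bound to happen, because at these loci the groups do not overlap. dsEGFP replicate 3 had the fewest loci above 0, 484, where dsTcAMPKα replicates 1 to 3 had 553, 572 and 567 and dsEGFP replicates 1 and 2 had 561 and 548. It also had the lowest value of the 6 libraries at 104 of the 293 tested loci (35.5%), against 26.6% over all tested, and at 18 of the 25 loci that passed as higher.

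Fold change and length were hardly related among the single-exon loci. Spearman's rho between them was 0.086 over the 293 tested loci and 0.64 over all 10981 genes and loci, a description across features that share the 6 libraries. The 150 tested single-exon loci with a length between 377 and 1073 bases, their interquartile range, had a median of 0.26 on the log2 scale, with 13 higher and 2 lower. Other genes and loci of that length were mostly on the negative side (median log2 fold change -0.34), and 25 were higher and 187 lower among 2874 tested. The difference between these sets was not tested. When a smooth trend on length was removed from each library, the median was 0.39 for the tested loci and -0.0048 for all, but 7 loci were called higher and 2 lower, and 6 of the 31 remained. In that setting 121 of all 10981 passed (1.102%) and 0.419% were higher.

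The loci on scaffolds accounted for most of the calls. On NW_ scaffolds 19 of 165 tested loci were higher and 2 lower, and the median change on the log2 scale was 0.41. On NC_ sequences 6 of 128 were higher and 4 lower, with a median of 0.13. The shares on scaffolds were 11.5% higher and 1.21% lower, and those on NC_ sequences, 4.69% and 3.13%, were near the 4.09% and 2.71% over all tested. Of the 25 loci called higher, 15 were on scaffolds without a named gene, where the median over 112 tested loci was 0.46. Named genes on scaffolds had a median of 0.31 over 629 tested, with 38 higher and 15 lower. The difference between scaffolds and chromosomes was not tested. Among 46 tested spliced unannotated loci on scaffolds, 4 were higher (8.70%) and 0 lower. Without dsEGFP replicate 3 the medians lay closer together, at 0.33 on scaffolds and 0.17 on NC_ sequences, beside 0.25 over all genes. In that setting 20 of 178 loci on scaffolds were higher and 10 lower, and 9 of 129 on NC_ sequences were higher and 9 lower. Over all genes and loci 10.9% then passed and 6.26% were higher. The small number of lower loci on scaffolds was thus not kept without that library.

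**Figure D2:**
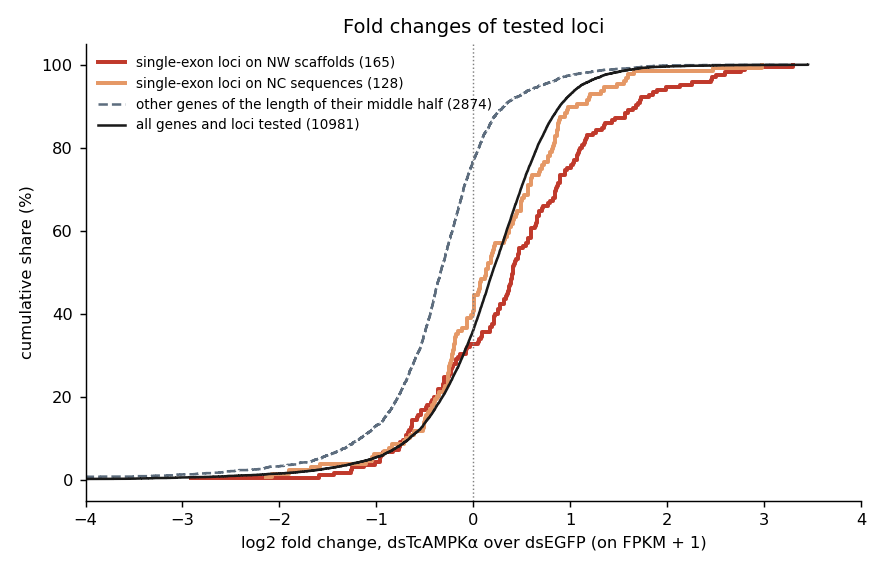
Cumulative share (vertical axis, %) of tested loci against the log2 fold change of dsTcAMPKα over dsEGFP on FPKM + 1, for single-exon loci on NW_ scaffolds (165) and NC_ sequences (128), for other genes and loci with a length of 377 to 1073 bases (2874), and for all tested (10981). The scaffold loci lie furthest to the right with a median of 0.41, and the other genes of similar length furthest to the left with a median of -0.34.

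Of the 6 loci that were lower in dsTcAMPKα larvae, 2 were also the most abundant of all 621. MSTRG.11 lay on the minus strand of the mitochondrial sequence NC_003081.2, positions 12557 to 14612, upstream of ND1, the gene of a respiratory complex I subunit. In insects this stretch carries the ribosomal RNA genes of the mitochondrion, which the tables do not name. MSTRG.11 had 15703, 16627 and 18956 FPKM in dsTcAMPKα replicates 1 to 3, against 53120, 64479 and 47476 FPKM in dsEGFP replicates 1 to 3. The highest dsTcAMPKα library was below the lowest dsEGFP library, and the log2 fold change was -1.68 ± 0.32 (SE, limma adjusted p = 0.027). The opposite-strand transcript that covers the same stretch, positions 12554 to 15881, carries the name CYTB in the tables and had 5317, 6516 and 6175 FPKM in the dsTcAMPKα libraries, against 8673, 6372 and 16793 FPKM in the dsEGFP libraries. Its groups overlapped. The study does not state whether its libraries kept the strand, and the opposite-strand pairs below were read as unstranded. In unstranded libraries, reads cannot be told apart between MSTRG.11 and this transcript. ND1, on the same strand as MSTRG.11, had 1782, 1731 and 1654 FPKM in dsTcAMPKα larvae, against 5127, 6115 and 2368 FPKM in dsEGFP larvae, and did not pass (log2 fold change -1.29, limma adjusted p = 0.060). MSTRG.11 no longer passed with quantile normalization (log2 fold change -0.96, limma adjusted p = 0.060) or with no filter on low values (limma adjusted p = 0.39), and it passed with the length trend removed (log2 fold change -2.05, limma adjusted p = 0.047).

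MSTRG.13313, a locus of 388 bases without a strand, lay at positions 640 to 1027 of scaffold NW_015451911.1, which holds no named gene. It had 1941, 1503 and 1803 FPKM in the dsTcAMPKα libraries, against 3140, 6127 and 5413 FPKM in the dsEGFP libraries. All dsTcAMPKα values were below all dsEGFP values, with dsEGFP replicate 1 the nearest to them (log2 fold change -1.44 ± 0.31, SE, limma adjusted p = 0.032). It passed in 6 of 9 processing settings, but not with quantile normalization (log2 fold change -0.87, limma adjusted p = 0.064), the length trend removed (log2 fold change -0.84, limma adjusted p = 0.24) or no filter (limma adjusted p = 0.064). MSTRG.11 and MSTRG.13313 together set the summed level of the class. With both, the 621 loci summed to 20364, 21040 and 23715 FPKM in dsTcAMPKα larvae, against 59378, 73404 and 56501 FPKM in dsEGFP larvae. The other 619 loci summed to 2719, 2909 and 2956 FPKM, against 3119, 2798 and 3612 FPKM, and the groups overlapped.

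The other 4 lower loci had modest levels. MSTRG.10329 (NC_007423.3, positions 12237334 to 12237694, minus strand) had 10.2, 8.84 and 7.99 FPKM in dsTcAMPKα larvae, against 50.8, 53.0 and 17.3 FPKM in dsEGFP larvae (log2 fold change -1.90 ± 0.42, SE, limma adjusted p = 0.034). It lay 184 bases upstream of LOC103314084 on the same strand, and this gene had a log2 fold change of -0.93 (limma adjusted p = 0.027), short of the threshold on fold change. MSTRG.3595 (NC_007418.3, positions 25550402 to 25550687, plus strand) had 10.7, 5.79 and 3.75 FPKM, against 19.0, 23.2 and 20.1 FPKM in dsEGFP larvae (log2 fold change -1.58 ± 0.33, SE, limma adjusted p = 0.031). It lay inside LOC655929 on the same strand, and that gene had a log2 fold change of 0.11 (limma adjusted p = 0.80) and did not pass. MSTRG.13135, at positions 1 to 517 of scaffold NW_015451538.1, had 3.50, 4.65 and 4.02 FPKM, against 10.7, 10.3 and 9.04 FPKM in dsEGFP larvae (log2 fold change -1.13 ± 0.17, SE, limma adjusted p = 0.022). MSTRG.3829 (NC_007418.3, positions 30444485 to 30445593) had 4.43, 4.28 and 4.63 FPKM, against 10.1, 10.6 and 11.5 FPKM in dsEGFP larvae (log2 fold change -1.11 ± 0.15, SE, limma adjusted p = 0.020). Of the 6 lower loci, MSTRG.3829 had the smallest standard error. With the length trend removed, MSTRG.3829 still passed, whereas MSTRG.10329, MSTRG.3595 and MSTRG.13135 did not (limma adjusted p = 0.17, 0.23 and 0.13), and MSTRG.10329 did not pass with limma-voom either (limma adjusted p = 0.059). The study's supplementary gene ontology list places MSTRG.3829 under dephosphorylation, the removal of phosphate groups from other molecules, and RefSeq now lists 1 protein-coding gene, LOC135267919, between its neighbours LOC103314615 and LOC655595. The nearest named gene, LOC103314615 at 454 bases, had a log2 fold change of 0.24 (limma adjusted p = 0.61).

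**Figure D3:**
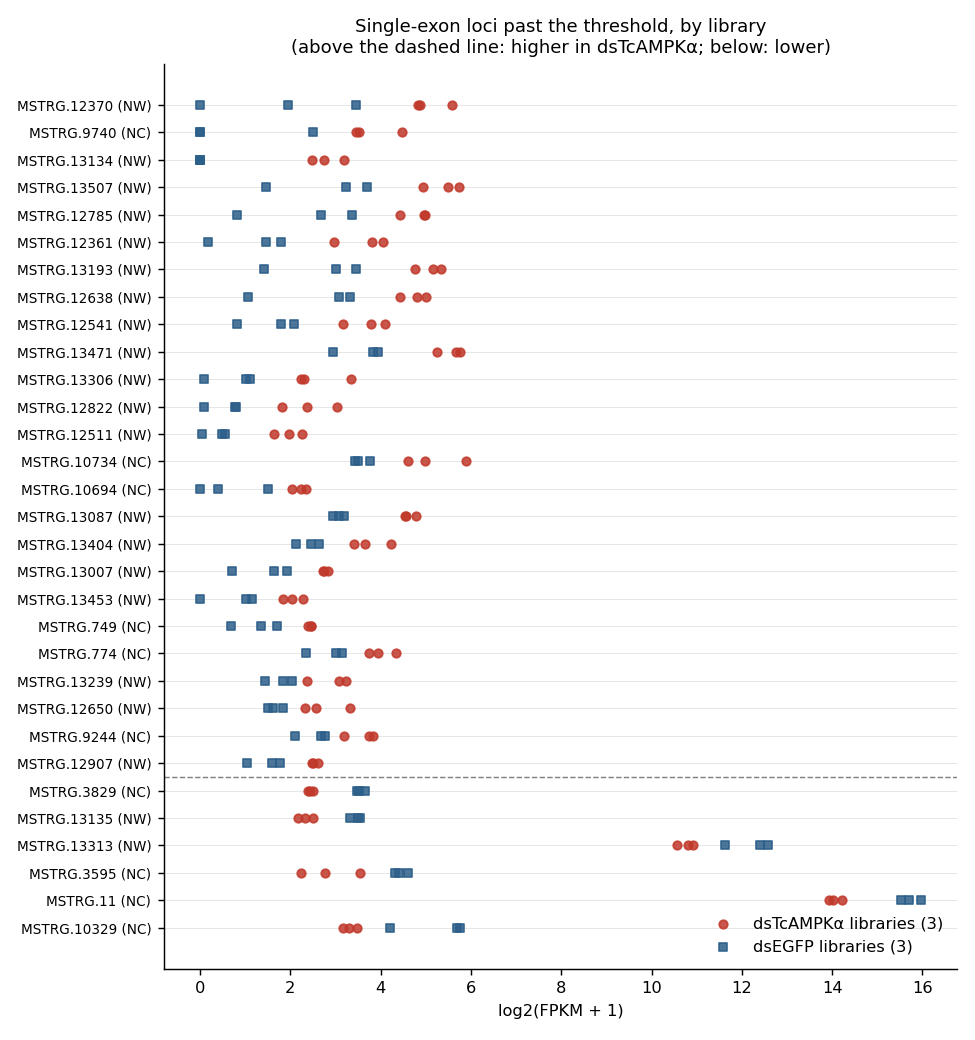
log2(FPKM + 1) of the 31 single-exon loci past the threshold (rows, with NC or NW for the kind of sequence) in the 3 dsTcAMPKα libraries (circles) and the 3 dsEGFP libraries (squares), ordered by fold change. The 25 loci above the dashed line were higher and the 6 below it lower in dsTcAMPKα larvae, the groups overlap in none of the 31 rows, and MSTRG.11 and MSTRG.13313 stand far to the right of the others.

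Among the loci that were higher in dsTcAMPKα larvae, 4 of the 10 largest changes at a pseudocount of 1 belonged to loci that the study's supplementary annotation describes as retroelement sequences. That annotation covers only transcripts the study had called as changed in these same libraries, so it is no independent evidence of direction. MSTRG.12541, at positions 1 to 620 of scaffold NW_015450325.1, and MSTRG.12638, at positions 884 to 1500 of NW_015450536.1, are described as the ORF2 protein of a LINE-1 element, which carries the reverse transcriptase. MSTRG.12541 had 16.1, 12.9 and 7.97 FPKM in dsTcAMPKα replicates 1 to 3, against 3.21, 2.44 and 0.752 FPKM in dsEGFP replicates 1 to 3 (log2 fold change 2.13 ± 0.39, SE, limma adjusted p = 0.027). MSTRG.12638 had 31.1, 27.0 and 20.4 FPKM, against 8.96, 7.44 and 1.11 FPKM in dsEGFP larvae (log2 fold change 2.26 ± 0.59, SE, limma adjusted p = 0.046). In both loci dsEGFP replicate 3 was the lowest library.

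MSTRG.13193 (NW_015451658.1, positions 30 to 1238, plus strand) and MSTRG.12785 (NW_015450817.1, positions 9 to 1008, plus strand) are described as an RNA-directed DNA polymerase like that of the transposon BS, with an endonuclease-reverse transcriptase domain. MSTRG.13193 had 39.6, 34.6 and 26.1 FPKM in dsTcAMPKα larvae, against 10.0, 7.03 and 1.68 FPKM in dsEGFP larvae (log2 fold change 2.45 ± 0.52, SE, limma adjusted p = 0.031). MSTRG.12785 had 30.8, 30.0 and 20.7 FPKM, against 9.37, 5.42 and 0.754 FPKM in dsEGFP larvae (log2 fold change 2.50 ± 0.63, SE, limma adjusted p = 0.043). Again every dsTcAMPKα library was above every dsEGFP library, and dsEGFP replicate 3 was the lowest. Without that library all 4 still passed with smaller log2 fold changes, 1.76 for MSTRG.12541, 1.55 for MSTRG.12638, 1.85 for MSTRG.13193 and 1.77 for MSTRG.12785. Whether these loci share reads with each other or with other copies of such elements was not tested. Over 9 alternative processing settings with all libraries, MSTRG.12541 and MSTRG.13193 passed in 8 each, but not with the length trend removed (limma adjusted p = 0.054 and 0.12). MSTRG.12638 and MSTRG.12785 passed in 3 each, and with median-ratio size factors their limma adjusted p were 0.076 and 0.066.

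All 4 loci ranked the 6 libraries identically. This order was shared by 14 of the 293 tested single-exon loci (4.78%), against 216 of all 10981 tested (1.97%). Besides the 4, it was found in MSTRG.749, MSTRG.774, MSTRG.12511, MSTRG.13471 and MSTRG.13507, which were higher, and in MSTRG.7462, MSTRG.10644, MSTRG.11177, MSTRG.12548 and MSTRG.12954, which did not pass. These loci were chosen by the order after their values were seen. The 14 include the 4 loci from which the order was taken, so the shares are no test of it.

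**Figure D4:**
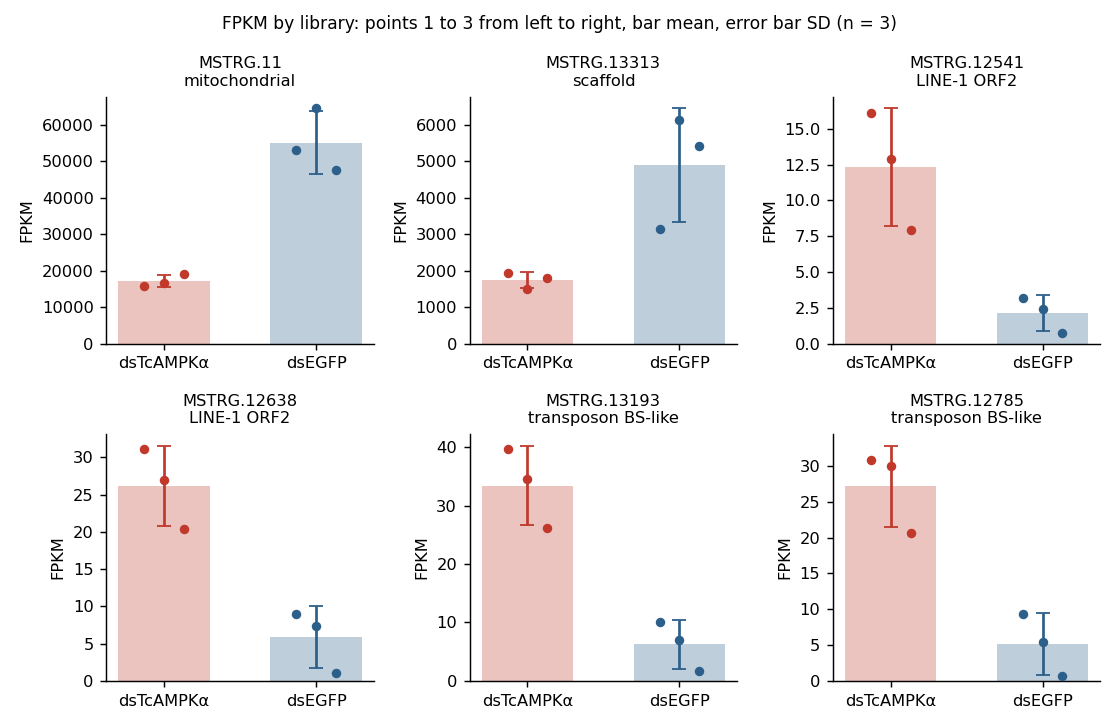
FPKM of 6 single-exon loci in dsTcAMPKα (left bar of each panel) and dsEGFP larvae (right bar); points are replicates 1 to 3 from left to right, bars are means and error bars SD (n = 3). MSTRG.11 and MSTRG.13313 are lower in all dsTcAMPKα libraries, whereas the 4 loci described as LINE-1 ORF2 or transposon BS-like are higher in all of them, with the lowest value of each in dsEGFP replicate 3.

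Another 4 of the 8 loci with a description were less abundant or changed less. MSTRG.12548 (NW_015450377.1, positions 427 to 4495), described as similar to the transposase of the P element, had 2.54, 1.87 and 1.59 FPKM in dsTcAMPKα larvae, against 1.03, 0.597 and 0.272 FPKM in dsEGFP larvae. Its groups did not overlap, but it did not pass (log2 fold change 0.89 ± 0.25, SE, limma adjusted p = 0.058). MSTRG.12584, a further locus like transposon BS, had 1.24, 0 and 1.11 FPKM, was listed at 0 in all dsEGFP libraries, and was too low to be tested. MSTRG.5399 (NC_007420.3, positions 3821779 to 3822591), described as similar to the salivary glue protein Sgs-3 of Drosophila, had 0.317, 0.590 and 1.12 FPKM, against 1.33, 1.22 and 1.38 FPKM in dsEGFP larvae, and was just under the mean needed for a test. MSTRG.12371, described as mucin-like, is one strand of a pair and is given with MSTRG.12370. In the gene ontology list, held only in part here, 33 single-exon loci appear under a biological process. Of these, 13 stand under DNA biosynthesis, RNA-dependent DNA biosynthesis, integration or recombination, and 12 of the 13 are on scaffolds. Only 4 of the 13 were abundant enough to be tested with limma. Of the 4, 0 passed and 0 had an unadjusted p under 0.05.

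Of the other 6 of the 10 largest rises, none had a description. MSTRG.13507 (NW_015452251.1, positions 7 to 762, plus strand) had 52.3, 43.9 and 29.8 FPKM in dsTcAMPKα larvae, against 12.1, 8.40 and 1.74 FPKM in dsEGFP larvae (log2 fold change 2.59 ± 0.58, SE, limma adjusted p = 0.034). MSTRG.13471 (NW_015452151.1, positions 215 to 1616, plus strand) had 53.5, 49.8 and 37.2 FPKM, against 14.3, 13.2 and 6.76 FPKM in dsEGFP larvae (log2 fold change 1.99 ± 0.30, SE, limma adjusted p = 0.022). At both, every dsTcAMPKα library was above every dsEGFP library. Without dsEGFP replicate 3 the log2 fold change of MSTRG.13507 was 1.92, and this locus did not pass with median-ratio size factors (limma adjusted p = 0.053) or with the length trend removed (limma adjusted p = 0.10). MSTRG.12361 (NW_015450207.1, positions 66247 to 67560) had 15.5, 6.84 and 13.04 FPKM, against 2.48, 1.74 and 0.139 FPKM in dsEGFP larvae (log2 fold change 2.46 ± 0.48, SE, limma adjusted p = 0.029), and did not pass with a pseudocount of 0.1 (limma adjusted p = 0.051) or the length trend removed (limma adjusted p = 0.11). MSTRG.9740, the only locus of the 10 on a chromosome (NC_007423.3, positions 7557842 to 7558908), had 10.5, 9.91 and 21.2 FPKM, against 4.67, 0 and 0 FPKM in dsEGFP larvae (limma adjusted p = 0.039). It passed in 4 of 9 processing settings, and the limma adjusted p in the other settings lay between 0.052 and 0.13. It lay 12876 bases from LOC660497, a gene with a mean of 0.059 FPKM. MSTRG.13134 (NW_015451537.1, positions 8 to 835) had 8.07, 4.60 and 5.73 FPKM and was listed at 0 in all 3 dsEGFP libraries (limma adjusted p = 0.015). Because of the zeros, the fitted fold changes of MSTRG.9740 and MSTRG.13134 depend on the pseudocount and are not given. MSTRG.13134 was also among the 3 loci that passed in every processing setting in which they were tested, with MSTRG.13087 (22.6, 22.3 and 26.5 FPKM, against 8.14, 7.39 and 6.71 FPKM in dsEGFP larvae) and MSTRG.3829.

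The remaining 15 higher loci, 10 on scaffolds and 5 on chromosomes, had mean levels between 1.63 and 24.2 FPKM and log2 fold changes between 1.07 and 1.89 (limma adjusted p between 0.016 and 0.049). Their groups did not overlap either. None of them has a description in the study's supplementary tables.

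The last of the 10 loci, MSTRG.12370, is one strand of an opposite-strand pair. MSTRG.12370 (NW_015450214.1, positions 13694 to 17102, plus strand) had 28.2, 27.4 and 46.9 FPKM in dsTcAMPKα replicates 1 to 3, against 0, 9.92 and 2.84 FPKM in dsEGFP replicates 1 to 3 (limma adjusted p = 0.041). It passed in 2 of the 9 processing settings, and because of the 0 its fitted fold change is not given. MSTRG.12371, on the minus strand of nearly the same interval, had 28.2, 27.4 and 0 FPKM, against 12.9, 9.92 and 2.84 FPKM in dsEGFP larvae (log2 fold change 0.17, limma adjusted p = 0.94). In each library the strands were within 1.1-fold of each other or one of them was at 0. The sum of both strands was 56.4, 54.9 and 46.9 FPKM in dsTcAMPKα larvae, against 12.9, 19.8 and 5.68 FPKM in dsEGFP larvae, and these groups did not overlap. With opposite-strand pairs summed, an alternative chosen after the data had been seen, the log2 fold change of this interval was 2.10 ± 0.40 (SE, limma adjusted p = 0.027).

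This division was general. There were 15 pairs of single-exon loci that overlapped on opposite strands, 8 of them over identical intervals. Of the 90 values of a pair in a library, 42 had one strand at 0, 33 had both strands within 1.1-fold of each other, 14 lay in between, and 1 had both strands at 0. The level of a single member of a pair, and the fold change of MSTRG.8439 or MSTRG.12371, is therefore not interpretable alone. The most abundant pair was MSTRG.8438 and MSTRG.8439 (NC_007422.5, positions 8832264 to 8833126), 311 bases upstream of LOC107398350. Its sum was 325, 289 and 217 FPKM in dsTcAMPKα larvae, against 266, 270 and 450 FPKM in dsEGFP larvae, and the groups overlapped (log2 fold change -0.22 ± 0.27, SE, limma adjusted p = 0.58). LOC107398350 itself was lower in dsTcAMPKα larvae (log2 fold change -1.62, limma adjusted p = 0.023). RefSeq now lists JTBR between LOC107398350 and Gstcd, the flanking genes of this pair and of MSTRG.8440. The pair MSTRG.3470 and MSTRG.3471 (NC_007418.3, positions 23156339 to 23157063), of which MSTRG.3470 is listed under CTP synthesis, summed to 14.9, 22.5 and 26.0 FPKM, against 6.84, 14.1 and 1.98 FPKM in dsEGFP larvae (log2 fold change 1.61 ± 0.57, SE, limma adjusted p = 0.096). Its groups did not overlap, but the sum did not pass. Over the 15 pairs, the sums of the groups did not overlap in 5, with 4 higher and 1 lower in dsTcAMPKα larvae, where 36.8% of all 15099 genes and loci had groups that did not overlap.

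**Figure D5:**
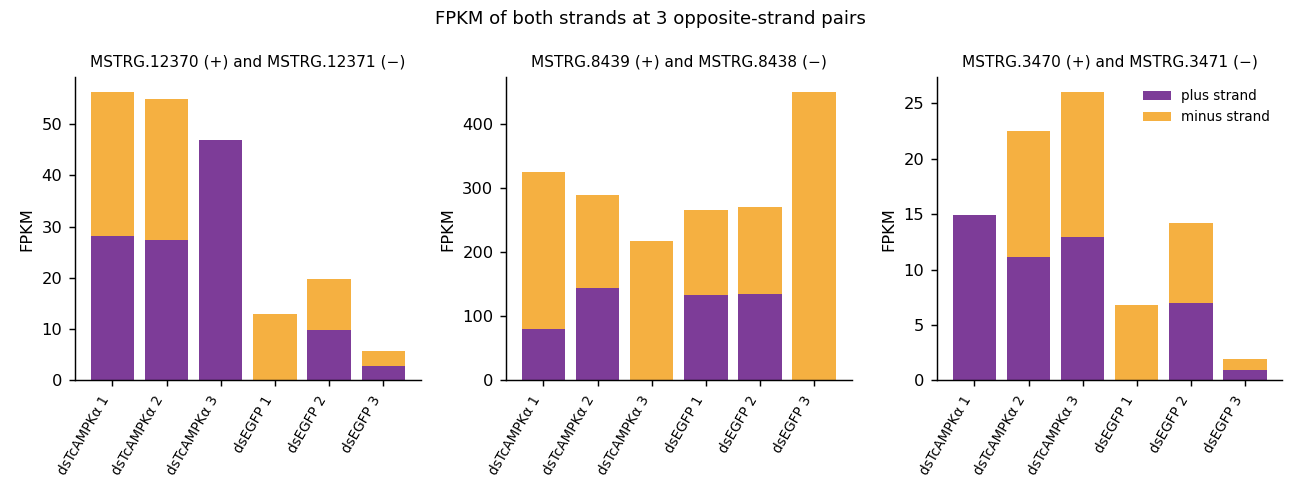
FPKM (vertical axis) of the plus and minus strand locus, stacked, at 3 opposite-strand pairs in dsTcAMPKα replicates 1 to 3 and dsEGFP replicates 1 to 3. Within a library the strands hold nearly equal values or one of them is at 0 in most bars, as in dsTcAMPKα replicate 3 of the left panel, where MSTRG.12370 has 46.9 FPKM and MSTRG.12371 has 0.

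The other most abundant single-exon loci did not pass. MSTRG.7607 (NC_007422.5, positions 976410 to 977291, minus strand) had 75.1, 86.4 and 137 FPKM in dsTcAMPKα larvae, against 214, 266 and 1210 FPKM in dsEGFP larvae (log2 fold change -2.08 ± 0.66, SE, limma adjusted p = 0.073). Its groups did not overlap, and dsEGFP replicate 3 stood far above the rest. Without that library the log2 fold change was -1.30 and passed (limma adjusted p = 0.020). MSTRG.12765 (NW_015450731.1, positions 5416 to 7154) had 48.7, 84.0 and 79.8 FPKM, against 141, 117 and 61.9 FPKM in dsEGFP larvae. MSTRG.8440 (NC_007422.5, positions 8836118 to 8836560, plus strand) had 61.1, 77.9 and 30.5 FPKM, against 239, 70.5 and 51.1 FPKM. The groups overlapped at both. MSTRG.12906 (NW_015451027.1, positions 322560 to 323136, minus strand) had 108, 93.2 and 114 FPKM, against 72.9, 67.3 and 22.9 FPKM in dsEGFP larvae. Its groups did not overlap, but it did not pass (log2 fold change 1.101 ± 0.43, SE, limma adjusted p = 0.12).

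Length extremes and zeros were also examined. The longest locus, MSTRG.9107 with 10173 bases (NC_007422.5, positions 15644868 to 15655040, plus strand), had 1.38, 0.764 and 1.24 FPKM in dsTcAMPKα larvae, against 0.656, 0.424 and 0.457 FPKM in dsEGFP larvae, and it overlapped an opposite-strand locus. MSTRG.13343 with 6305 bases (NW_015451937.1, positions 344611 to 350915) had 1.17, 1.28 and 1.44 FPKM, against 1.47, 0.665 and 0.517 FPKM. The shortest, MSTRG.13487 with 200 bases (NW_015452189.1, positions 8364 to 8563), had 1.35, 1.25 and 1.102 FPKM, against 0.183, 0.589 and 0.131 FPKM, and the groups did not overlap. MSTRG.3367 with 201 bases (NC_007418.3, positions 20664398 to 20664598) had 0.414, 0 and 0.0145 FPKM, against 0, 0 and 1.15 FPKM. Of these 4, MSTRG.13343 was the only one with a mean above 1 FPKM, and it did not pass (log2 fold change 0.32, limma adjusted p = 0.39). Another 8 loci were listed at 0 in every library of 1 group and had a mean of at least 1 FPKM in the other. In 6 of them a single library carried the whole signal, and in 4 of the 6 that library was dsEGFP replicate 3. They included MSTRG.13025, which had 0 FPKM in all dsTcAMPKα libraries, against 0, 0 and 26.2 FPKM in dsEGFP larvae, and MSTRG.12736, which had 0, 0 and 12.8 FPKM in dsTcAMPKα larvae and 0 in all dsEGFP libraries. MSTRG.13134 was the only locus of the 8 with a value above 0 in 3 libraries.

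The fold changes of the loci were compared with those of their neighbours. On NC_ sequences, both the locus and its nearest named gene were tested in 89 cases, and Spearman's rho between their log2 fold changes was 0.089, with the same sign in 51. For 45 cases that overlapped or lay within 1 kb, rho was 0.25 and the sign was the same in 30. For 38 cases at 1 to 10 kb, rho was 0.033 and the sign was the same in 18. These are descriptions across loci measured in the same 6 libraries. In the close pairs, reads running from the gene into the locus cannot be told apart from a transcript of its own.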

How the data were processed

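Per the labels and the study's methods, HISAT2 was used for alignment to Tcas5.2 and StringTie for assembly. For each library the authors deposited the FPKM and the coverage (signal, reads per base) of 31944 transcripts. From these values, FPKM were summed by gene name, or by locus where no name was given. Neighbours were taken from the listed coordinates. Genes and loci with a mean of at least 1 FPKM entered the test on log2(FPKM + 1), for which limma 3.58.1 was run in R 4.3.3 (variance trend, Benjamini-Hochberg adjustment over all 10981). Every adjusted p is limma's. The deposited files hold no counts, so precision rests on how far the 3 pools of larvae in a group differ. The members and lists were chosen with earlier results of these data known. Loci named are the 8 most abundant, the 10 largest rises and all falls among loci that passed, those at 0 in 1 group, the 2 longest and 2 shortest, and those described in the supplementary tables; MSTRG.13087 and the loci of the shared library order were named after their values were seen. Alternatives changed the pseudocount (0.1), the filter (none, or a mean of 5), the scaling (median-ratio, quantile, length trend with a lowess span of 0.4), the test (limma-voom on reads estimated at 150 bases each) and the libraries. Both the summing of opposite-strand pairs and an FPKM total without the mitochondrial sequence were chosen after seeing the data. Correlations were computed in Python 3.11.15 (scipy 1.17.1).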

Additional observations from a re-analysis of the deposited data

How the results depend on the processing

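The direction of the 31 loci past the threshold was kept in all 15 alternatives in which they were tested, but their number was not. In the settings that left out 1 library, and with a pseudocount of 0.1, this was bound to hold, because the groups of these loci do not overlap. A changed filter leaves the fold changes as they are, and summing opposite-strand pairs leaves loci outside pairs as they are. The other settings were applied to loci chosen for a log2 fold change beyond 1. The kept direction is therefore no independent support. The count of loci higher in dsTcAMPKα larvae, 25 as reported, was 14 with no filter on low values, 14 with a mean of at least 5 FPKM, 11 with median-ratio size factors, 12 with the mitochondrial sequence left out of the total and 7 with the length trend removed. The count of lower loci, 6 as reported, was 2 with the length trend removed and 2 when only loci at least 1 kb from any named gene were counted. With 1 library left out, the higher count lay between 0 and 29 and the lower count between 0 and 19. The median log2 fold change, 0.33 as reported, was 0.49 with a pseudocount of 0.1, 0.49 with limma-voom, 0.15 with a mean of at least 5 FPKM and 0.18 with median-ratio size factors, beside medians over all genes of 0.22, 0.24, 0.21 and -0.0078. The cause of these shifts was not tested. With 2 libraries in a group the spread is less well known, and fewer loci pass a mean of 5 FPKM (98 tested).

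Among the loci that did not pass, signs were followed only for the named ones, and the sign turned for 4. MSTRG.12371 had -0.77 with a pseudocount of 0.1, -0.0068 with median-ratio size factors, -0.045 with quantile normalization, -0.47 with the length trend removed and -2.12 with limma-voom, and lay between -0.65 and 1.79 with 1 library left out. MSTRG.8438 had 0.13 with quantile normalization and 0.18 with the length trend removed, and lay between -0.32 and 0.55. MSTRG.8439 had 0.0049 with the length trend removed and 0.060 with limma-voom, and lay between -2.57 and 2.05. MSTRG.13343 had -0.57 with the length trend removed. No paired analysis was possible because the labels carry no replicate numbers that pair the groups.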
